A study of Homo sapiens with 6 samples.

Results

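The 45 genes described here act in G2 and mitosis. They were chosen by symbol, from the cyclins and kinases that start mitosis through the spindle checkpoint and kinetochore to cytokinesis and chromosome condensation, and each matched 1 of the 60671 Ensembl gene identifiers counted in the study. Of these 45 members, 44 passed the filter on low counts and were tested. The exception was *UBE2C*. Expression was measured in 1 clone of K562, a human chronic myeloid leukemia line, that carries the doxycycline-inducible fusion Flag-NLS-M.CviPI-Lamin-B1, a GpC methyltransferase joined to a lamina protein. All cultures were seeded at 125000 cells/mL, treated for 72 h, and given 1 µg/mL doxycycline during the last 24 h. The DMSO group (0.1%, vehicle) and the EZH2i group (1 µM GSK343, an inhibitor of the H3K27 methyltransferase EZH2) had 3 cultures each, so the spread between libraries is that between cultures of 1 clone. The comparison addresses how expression changes upon EZH2 inhibition. In bulk RNA, fewer cells in G2 and mitosis and less RNA per such cell cannot be told apart.

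Libraries came from a 3′ mRNA kit, so reads lie close to the poly(A) end of each transcript, and they held from 6327544 to 8987768 reads on genes. Levels are given as CPM, counts per 1000000 reads on the tested genes after TMM scaling of the libraries, and they are compared between libraries and not between genes. Of 12 K562 markers 11 passed the filter, with *GATA1* and *TAL1* at 79.9 and 108 CPM on average in DMSO and 96.7 and 112 CPM in EZH2i. Called higher in EZH2i were 2 of these 11, beside 3.34% of all tested genes. They were the globin genes *HBZ* and *HBG2*, with log2 fold changes of 1.15 and 0.58 (adjusted p = 6.14e-05 and 0.0251, edgeR), and the near-identical *HBG1* makes the second uncertain. Of 12 markers of other lineages 5 passed, and 2 of them were called higher, beside the same 3.34%. These were *COL1A1*, which went from 1.57 to 6.04 CPM, and *CD3D*, from 63.8 to 88.0 CPM (adjusted p = 0.00424 and 0.0309, edgeR). *EPCAM* was at 77.5 and 63.9 CPM, and the B cell gene *MS4A1* had no read in any library. The part of these marker changes in the results below was not tested.

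A cell enters mitosis when cyclin B bound to CDK1 becomes active, a step driven by CDC25 phosphatases and reinforced by the Polo-like and Aurora kinases. Chromosomes are compacted by condensin and topoisomerase II, attach to spindle microtubules through kinetochores, and are held by the spindle checkpoint until every kinetochore is attached. The anaphase-promoting complex then marks securin and cyclin B for destruction, and the cell divides. Many of these genes are transcribed late in the cell cycle under the MuvB complexes, which bind an element called the CHR, and under NF-Y, which binds the CCAAT box.

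Few G2/M and mitosis genes passed the test upon EZH2 inhibition. The only member called at an adjusted p under 0.05 was *SMC4*, the condensin ATPase subunit, which was lower in EZH2i (quasi-likelihood F test of edgeR, adjusted by Benjamini-Hochberg over all 12364 tested genes). That is 2.27% of the 44 tested members, beside 4.26% of all tested genes called in either direction and 0.922% called lower. No member was called higher, where 3.34% of all tested genes were. Over all tested genes 413 were called higher and 114 lower, a split that was 296 and 143 with DESeq2 and 579 and 349 without the filter on low counts. At an unadjusted p under 0.05 in edgeR's test there were 7 members, all lower, beside 19.1% of all tested genes in either direction and 8.21% that were lower.

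The log2 fold changes of the 44 tested members ranged from -0.39 for *CENPA* to 0.19 for *MKI67*, with a median of -0.12, beside a median of -0.000215 over all tested genes. Of the 44, 32 were below 0, or 72.7%, beside 6186 of the 12364 tested genes. For 13 members every EZH2i library lay below every DMSO library, and for none did every EZH2i library lie above. These 13 are 29.5% of the members, beside 24.5% of all tested genes whose groups did not overlap in either direction and 11.1% with EZH2i lower. The members are not independent of each other, and no test was made of the list as a whole.

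**Figure D1:**
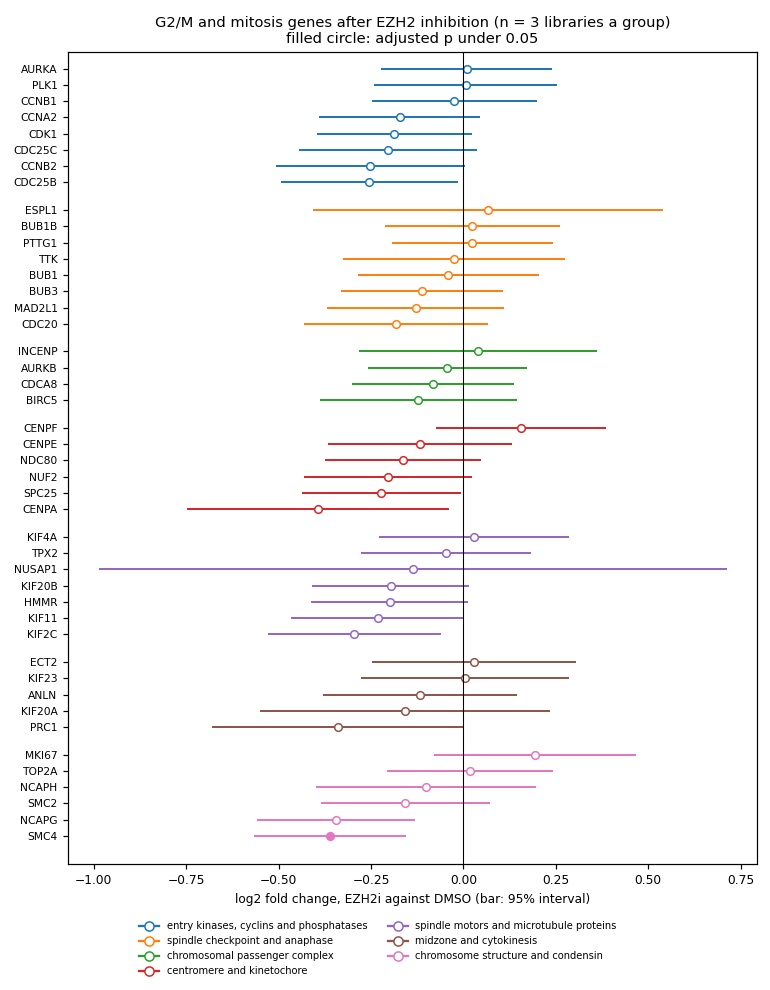
Log2 fold change of each tested member, EZH2i against DMSO (horizontal axis), with its 95% interval as a bar, in blocks by role (vertical axis, 1 gene a line). Circles run from -0.39 to 0.19, 32 of 44 lie left of 0, and *SMC4* is the only member with an adjusted p under 0.05.

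The 95% interval of a log2 fold change, taken from the standard error of edgeR's test, had a median half-width of 0.235 over the members and 0.322 over all tested genes. It lay wholly between -0.5 and 0.5 for 35 of 44 members, or 79.5%, against 45.3% of all tested genes. The members also had a higher median average expression, 7.20 log2 CPM against 4.62 over all tested genes, and thus more reads behind each value. An interval from -0.98 to 0.71, the widest of the members, belonged to *NUSAP1*, which had 11 to 28 reads a library.

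The DMSO libraries were spread as widely as the groups were apart. For each library, the median over the members of the log2 CPM minus the gene's mean over the 6 libraries was taken. In replicate order, it was 0.132, -0.0186 and 0.106 for DMSO and -0.0576, -0.0269 and -0.0748 for EZH2i. DMSO replicate 2 was only just above the EZH2i libraries, and was nearer to each of them than to another DMSO library. The median over all tested genes stayed between 0.00168 and 0.0189 in the 6 libraries.

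**Figure D2:**
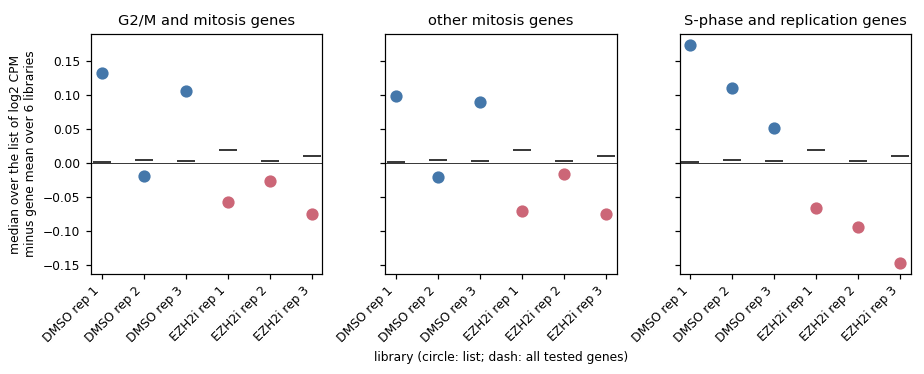
For 3 gene lists, the median over the list of log2 CPM minus each gene's mean over the 6 libraries (vertical axis), by library (horizontal axis; DMSO and EZH2i in different colors, dash for all tested genes). In the G2/M and mitosis list DMSO replicate 2, at -0.0186, lies beside the EZH2i libraries, while in the S-phase list the 3 DMSO libraries lie above 0 and the 3 EZH2i libraries below.

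Among the DMSO libraries, replicate 2 was the lowest for 30 of the 44 members and for 33.5% of all tested genes. The highest of all 6 libraries was DMSO replicate 1 for 16 members, or 36.4%, and DMSO replicate 3 for 18, or 40.9%, beside 16.3% and 14.0% of all tested genes. Summed over all 45 members, expression in replicate order was 9491, 8840 and 10086 CPM for DMSO and 8963, 8881 and 8907 CPM for EZH2i. The EZH2i sums lay inside the range of the DMSO sums, and the group values were 9472 ± 623 and 8917 ± 42.0 CPM (SD, n = 3 each). Such a sum leans on the genes with the highest CPM, above all *TOP2A*, at 1618 CPM on average over the libraries. Its overlap need not hold for the other members. Without DMSO replicate 2 the median log2 fold change of the members was -0.16, and without DMSO replicate 1 it was -0.096.

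EZH2i replicate 1 was the lowest of the 6 libraries for 14 members, or 31.8%, beside 24.3% of all tested genes. It was the highest for 3 members, or 6.82%, beside 23.9% of all tested genes, so over all genes it stood out in both directions. In this library *KIF20A*, *PRC1* and *CENPA* were at 0.548, 0.621 and 0.638 times the mean of EZH2i replicates 2 and 3, and *BIRC5*, *CDC20* and *CCNB2* were at 0.722 to 0.748 times. Under 0.8 times were 8 of 44 members, or 18.2%, beside 18.5% of all tested genes. The other 2 were *ESPL1* at 0.644 times and *INCENP* at 0.772 times. The log2 fold changes of these genes were higher without this library. That of *CENPA* was -0.39 with it and -0.20 without it, that of *PRC1* -0.34 and -0.14, and that of *BIRC5* -0.12 and 0.022. Those of *CCNB2* and *KIF20A* went from -0.25 and -0.16 to -0.12 and 0.080, and those of *ESPL1* and *INCENP*, already above 0, from 0.067 and 0.040 to 0.25 and 0.16.

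**Figure D3:**
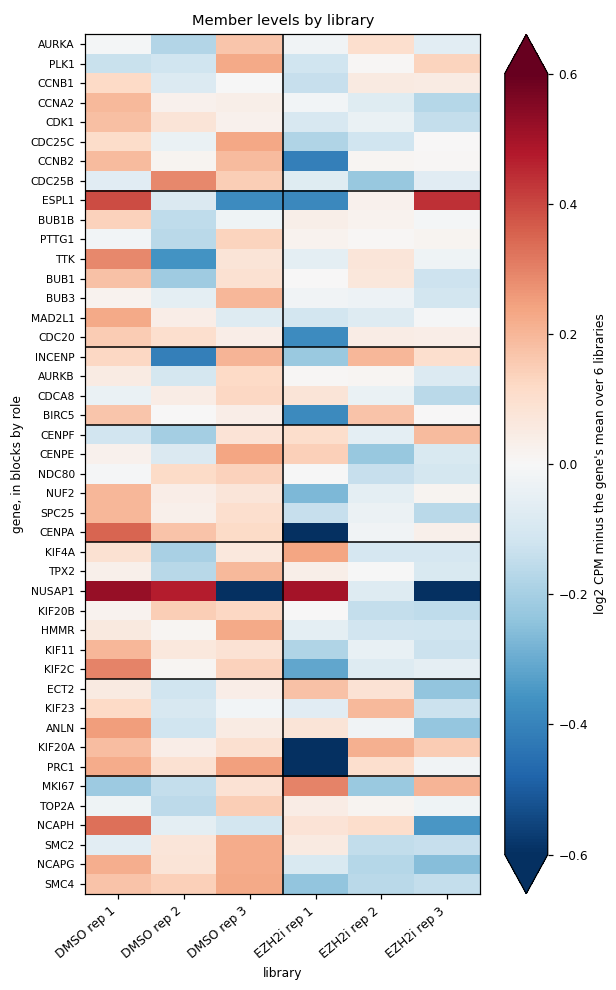
Log2 CPM of each tested member minus its mean over the 6 libraries (color; the middle of the scale is 0), by library (columns) and gene in blocks by role (rows). Low cells stand out in EZH2i replicate 1 for *KIF20A*, *PRC1* and *CENPA*, at 0.548 to 0.638 times the other EZH2i libraries, and DMSO replicate 2 is below DMSO replicates 1 and 3 for 30 of 44 members.

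Chromosome structure and condensin genes held the member that was called. Condensin is a ring of the ATPases SMC2 and SMC4, joined in condensin I by the kleisin NCAPH and the repeat protein NCAPG. *SMC4* (ENSG00000113810; chromosome 3 of GRCh38, 160399274 to 160434954, plus strand) was at 899, 883 and 936 CPM in DMSO and at 678, 715 and 724 CPM in EZH2i, here and for every gene in replicate order. Every DMSO library exceeded every EZH2i library. The log2 fold change was -0.36 (95% interval -0.56 to -0.16, adjusted p = 0.0411, edgeR). Without EZH2i replicate 1 the call was kept (adjusted p = 0.0435, edgeR), and it was lost without DMSO replicates 1, 2 or 3 (0.108, 0.0954 and 0.133) and without EZH2i replicates 2 or 3 (0.106 and 0.0840), while the log2 fold change stayed between -0.38 and -0.33. The call was also lost with upper-quartile normalization (adjusted p = 0.0507, edgeR), and with DESeq2 the adjusted p was 0.00192.

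*NCAPG* was at 237, 215 and 237 CPM in DMSO and 191, 181 and 171 CPM in EZH2i. Its groups did not overlap either. The log2 fold change was -0.34 (95% interval -0.56 to -0.13), and the adjusted p of 0.0614 in edgeR's test missed the threshold, which DESeq2 passed (adjusted p = 0.0215), as did edgeR without EZH2i replicate 1 (adjusted p = 0.0259). For the other core subunits the groups overlapped. *SMC2* was at 190.5, 209 and 232 CPM in DMSO and 206, 179 and 181 CPM in EZH2i, and its log2 fold change was -0.16 (adjusted p = 0.452, edgeR). *NCAPH* was at 94.8, 72.2 and 69.7 CPM in DMSO and 79.8, 81.1 and 59.0 CPM in EZH2i, and its log2 fold change was -0.10 (adjusted p = 0.750, edgeR). With 1 library left out at a time, *SMC2* ran from -0.23 to -0.082 and *NCAPH* from -0.18 to 0.046, so that its sign turned. Whether the subunits differed from each other in their response was not tested. Exons of *IFT80* and *TRIM59* overlap *SMC4* on the opposite strand, with 5.25 and 19.9 CPM in DMSO, and exons of *LCORL*, at 34.8 CPM, overlap *NCAPG*.

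*TOP2A* encodes the topoisomerase that untangles sister chromatids, and *MKI67* the Ki-67 protein that coats mitotic chromosomes and marks cycling cells in pathology. *TOP2A* was at 1587, 1447 and 1791 CPM in DMSO and 1666, 1632 and 1587 CPM in EZH2i, so that the EZH2i libraries lay inside the DMSO range. Its log2 fold change was 0.018 (95% interval -0.20 to 0.24, adjusted p = 0.952, edgeR), with a sign that turned without the filter on low counts. *MKI67* was at 277, 292 and 342 CPM in DMSO and 396, 276 and 371 CPM in EZH2i. EZH2i replicate 2 lay below every DMSO library, and the log2 fold change of 0.19, the highest of the tested members, did not pass (95% interval -0.077 to 0.46, adjusted p = 0.436, edgeR). It was 0.091 without EZH2i replicate 1 and 0.33 without EZH2i replicate 2.

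**Figure D4:**
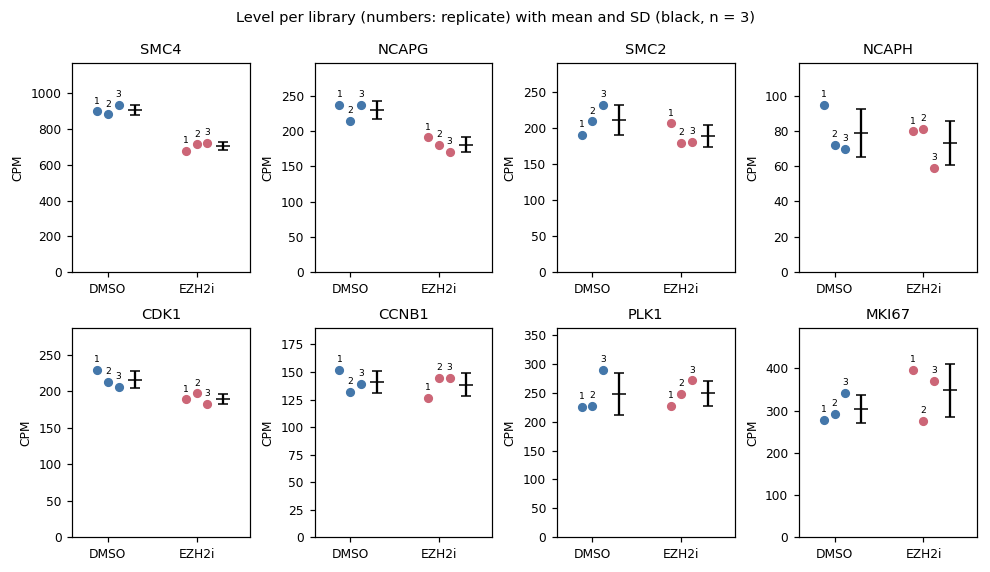
CPM per library (vertical axes) in DMSO and EZH2i (horizontal axes, groups in different colors) for 4 condensin subunits and for *CDK1*, *CCNB1*, *PLK1* and *MKI67*, with the mean ± SD (n = 3). The groups do not overlap for *SMC4*, *NCAPG* and *CDK1* and overlap for the other 5.

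Among the 8 genes of mitotic entry, none was called, beside 4.26% of all tested genes, and 6 were below 0, with a median log2 fold change of -0.18. In 4 of the 8, or 50%, the groups did not overlap with EZH2i lower, as in 11.1% of all tested genes. *CDK1*, the kinase that drives entry, was at 229, 213 and 206 CPM in DMSO and 189, 197 and 183 CPM in EZH2i. The groups did not overlap, and the log2 fold change was -0.19 (95% interval -0.39 to 0.021, adjusted p = 0.311, edgeR). Its cyclin partner *CCNB1* was at 152, 132 and 139 CPM in DMSO and 127, 145 and 145 CPM in EZH2i, and its groups overlapped, with a log2 fold change of -0.024 (95% interval -0.24 to 0.20, adjusted p = 0.931, edgeR). *CCNB2* and *CCNA2*, other cyclins of mitosis, had log2 fold changes of -0.25 and -0.17 and groups that did not overlap (adjusted p = 0.265 and 0.370, edgeR). Exons of *EXOSC9*, at 151 CPM in DMSO and 123 CPM in EZH2i, overlap *CCNA2* on the opposite strand. Such overlaps on the opposite strand affect 14 of the 45 members and overlaps on the same strand 4, and since the strand setting of the counting is not known here, the counts of these genes are uncertain.

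*CDC25B*, a phosphatase that activates CDK1, was at 87.4, 112 and 102 CPM in DMSO and 87.1, 78.3 and 87.4 CPM in EZH2i. DMSO replicate 1 was almost level with EZH2i replicates 1 and 3. Its log2 fold change of -0.25 was the lowest of the entry genes (adjusted p = 0.227, edgeR). *PLK1*, a kinase of the centrosome and spindle, was at 226, 228 and 289.6 CPM in DMSO and 227, 248 and 271 CPM in EZH2i (log2 fold change 0.0064, 95% interval -0.24 to 0.25, adjusted p = 0.983, edgeR). *AURKA*, the Aurora kinase of the spindle poles, had a log2 fold change of 0.0096 (95% interval -0.22 to 0.24, adjusted p = 0.974, edgeR). The groups overlapped for both kinases, and the sign of both turned with DESeq2 and without the filter on low counts.

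Of 8 tested genes of the spindle checkpoint and anaphase, none was called and none had groups that did not overlap, beside 4.26% and 24.5% of all tested genes. The median log2 fold change was -0.032. The checkpoint genes *BUB1*, *BUB1B*, *BUB3*, *MAD2L1* and *TTK* had log2 fold changes between -0.13 and 0.024. *CDC20*, the activator of the anaphase-promoting complex that the checkpoint restrains, had the lowest log2 fold change of these genes. It was at 209, 202 and 194 CPM in DMSO and 145, 195 and 194 CPM in EZH2i, with EZH2i replicate 1 far under the rest. The log2 fold change was -0.18 (adjusted p = 0.414, edgeR) and -0.053 without that library. Securin (*PTTG1*) was at 359, 324 and 398 CPM in DMSO and 368, 364 and 367 CPM in EZH2i. The protease it inhibits, separase (*ESPL1*), was at 17.2, 12.3 and 10.1 CPM in DMSO and 10.0, 13.4 and 17.8 CPM in EZH2i, with a log2 fold change of 0.067 (95% interval -0.40 to 0.54, adjusted p = 0.910, edgeR).

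*UBE2C*, the ubiquitin-conjugating enzyme of the anaphase-promoting complex, had 1 to 5 reads a library, under the filter, and could not be compared. The annotation names several copies of this gene, *UBE2CP1* among them, and their part in its low count was not tested.

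In the chromosomal passenger complex, survivin (*BIRC5*), borealin (*CDCA8*) and *INCENP* place the kinase *AURKB* at centromeres and then at the midzone. None of these 4 genes was called, beside 4.26% of all tested genes, and the median log2 fold change was -0.063. *AURKB* was at 210.2, 189 and 221 CPM in DMSO and 204, 205 and 192 CPM in EZH2i, with the EZH2i libraries inside the DMSO range (log2 fold change -0.044, 95% interval -0.26 to 0.17, adjusted p = 0.859, edgeR). *BIRC5* was at 244, 217 and 223 CPM in DMSO and 166, 244 and 217 CPM in EZH2i, again with EZH2i replicate 1 far under the rest. *INCENP* and *BIRC5* bounded the complex at log2 fold changes of 0.040 and -0.12 (adjusted p = 0.920 and 0.647, edgeR).

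At the centromere and kinetochore, 5 of 6 members were below 0 and none was called, beside 4.26% of all tested genes. *CENPA*, the histone variant that marks the centromere, was at 30.2, 26.7 and 25.6 CPM in DMSO and 15.2, 23.3 and 24.2 CPM in EZH2i. Every EZH2i library was lower, EZH2i replicate 1 by the most. The log2 fold change of -0.39, the lowest of the tested members, had a 95% interval of -0.74 to -0.041 and an adjusted p of 0.203 in edgeR's test. *CENPA* shares exons with *SLC35F6* on its strand, so its count is uncertain. In the Ndc80 complex, which binds microtubules, log2 fold changes were -0.16 for *NDC80*, -0.21 for *NUF2* and -0.22 for *SPC25* (adjusted p = 0.382, 0.303 and 0.238, edgeR). The groups did not overlap for *NUF2* and *SPC25*, nor for *CENPA*, with EZH2i lower as in 11.1% of all tested genes. *CENPF*, a large protein of the outer kinetochore, was at 604, 568 and 691 CPM in DMSO and 704, 627 and 745 CPM in EZH2i, and its log2 fold change was 0.16 (adjusted p = 0.458, edgeR), and the kinetochore motor *CENPE* had -0.12. With 1 library left out at a time, these ran from 0.097 to 0.24 for *CENPF* and from -0.22 to -0.022 for *CENPE*.

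Of 7 spindle motors and microtubule proteins, 6 were below 0, and 4 had groups that did not overlap with EZH2i lower, as did 11.1% of all tested genes. The median log2 fold change was -0.20. *KIF2C*, a kinesin that takes microtubules apart at centromeres, was at 246, 202 and 219.9 CPM in DMSO and 161, 189 and 193 CPM in EZH2i. All EZH2i libraries were lower, and the log2 fold change was -0.30 (95% interval -0.53 to -0.064, adjusted p = 0.142, edgeR). *KIF11*, the motor that separates spindle poles, *HMMR* and *KIF20B* had log2 fold changes of -0.23, -0.20 and -0.20 and no overlap between groups. *KIF4A*, a chromosome-bound kinesin, and *TPX2*, the activator of Aurora A, lay at 0.029 and -0.048 with overlapping groups. *NUSAP1* shares exons with *OIP5-AS1* on its strand and with *OIP5* on the opposite one, and its value is uncertain for this reason and for its low count.

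Among 5 genes of the midzone and cytokinesis, likewise beside 4.26% and 24.5% of all tested genes, none was called and none had groups that did not overlap. *PRC1*, which bundles midzone microtubules, was at 40.3, 36.8 and 41.0 CPM in DMSO and 22.1, 37.1 and 34.1 CPM in EZH2i. EZH2i replicate 2 lay inside the DMSO range, and the log2 fold change was -0.34 (95% interval -0.68 to -0.0025, adjusted p = 0.257, edgeR). *ECT2*, the exchange factor that activates RhoA at the cleavage furrow, was at 43.5, 38.6 and 43.1 CPM in DMSO and 47.4, 44.5 and 35.5 CPM in EZH2i (log2 fold change 0.028, adjusted p = 0.936, edgeR). The kinesins *KIF23* and *KIF20A* and the furrow scaffold *ANLN* had log2 fold changes of 0.0042, -0.16 and -0.12. With 1 library left out at a time, these ran from -0.10 to 0.067, from -0.32 to 0.080 and from -0.20 to -0.022.

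Promoter sequence, which the choice of members did not use, was searched for elements of cell cycle genes. RefSeq promoter sequences (GRCh38.p14, from 250 bases before to 50 after the start) were found for 39 of the 45 members. The CHR element, searched as TTTGAA or TTCGAA on either strand, stood in 29 of them, or 74.4%, beside 16.6% of the 27305 promoters in the table. The CCAAT box, searched as CCAAT on either strand, stood in 28, or 71.8%, beside 35.7%. Both were present in 22, or 56.4%, beside 6.58%. The 27305 promoters were not limited to the 12364 genes tested here. E2F sites, searched as TTTGGCGC or TTTCCCGC on either strand, stood in 2 member promoters, or 5.13%, beside 2.31%. In the lists nearest to the members, described further on, the CHR stood in 45.5% of 99 other mitosis promoters and 4.65% of 43 S-phase promoters, the CCAAT box in 56.6% and 58.1%, and E2F sites in 11.1% and 46.5%. Matches of the CHR and the CCAAT box can share 1 base, as in *MKI67*, and a match is a run of letters and not a measured binding site.

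To show how these elements are placed, the 120 bases before the start are printed for the called member and its complex partner (*SMC4*, *NCAPG*), a mitotic cyclin with several CCAAT boxes (*CCNB2*), a kinase with a fold change near 0 (*PLK1*) and the member with the highest fold change (*MKI67*). Each reads 5′ to 3′ on the gene's strand, with CHR and CCAAT matches of either strand in capitals.
SMC4 (chr3:160399530-160399649, plus strand): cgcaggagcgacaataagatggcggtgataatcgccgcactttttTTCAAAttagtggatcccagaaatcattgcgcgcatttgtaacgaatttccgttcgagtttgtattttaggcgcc
NCAPG (chr4:17810859-17810978, plus strand): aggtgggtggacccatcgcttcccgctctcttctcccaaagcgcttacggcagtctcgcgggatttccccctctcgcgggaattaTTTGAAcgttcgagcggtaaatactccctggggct
CCNB2 (chr15:59105026-59105145, plus strand): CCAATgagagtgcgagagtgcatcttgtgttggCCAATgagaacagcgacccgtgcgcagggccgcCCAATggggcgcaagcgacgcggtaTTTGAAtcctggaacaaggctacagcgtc
PLK1 (chr16:23678769-23678888, plus strand): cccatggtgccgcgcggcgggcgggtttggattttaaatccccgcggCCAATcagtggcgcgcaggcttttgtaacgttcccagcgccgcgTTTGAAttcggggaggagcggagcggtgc
MKI67 (chr10:128126424-128126543, minus strand): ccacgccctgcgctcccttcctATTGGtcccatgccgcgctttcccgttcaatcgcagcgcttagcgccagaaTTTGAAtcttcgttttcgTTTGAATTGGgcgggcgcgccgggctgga

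In *CCNB2* and *PLK1* the CHR began 29 bases before the start, in *NCAPG* 35, and in *MKI67* there were 2, beginning 47 and 29 bases before it. In *SMC4* the match lay at 75 bases and on the opposite strand. The 29 members with a CHR had a median log2 fold change of -0.14 and ranged from -0.39 to 0.19, and the 10 without one had a median of -0.14 and ranged from -0.30 to 0.024. The 22 with both elements had a median of -0.11. These values are a description, with no test between them.

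Other mitosis genes were taken as a list of 116 that holds none of the members. Of 113 tested, 5 were called lower and none higher, or 4.42%, beside 0.922% of all tested genes called lower. The median log2 fold change was -0.14, and 86 were below 0. *CDC25A*, the phosphatase of S-phase and mitotic entry, was at 66.0, 60.7 and 54.7 CPM in DMSO and 35.1, 45.4 and 43.7 CPM in EZH2i, for a log2 difference of -0.54 (adjusted p = 0.0218, edgeR). The other 4 genes that fell belong to the centromere and kinetochore. *MIS18A* and *OIP5*, which take part in loading CENPA onto centromeres, had log2 fold changes of -0.45 and -0.61, *CENPH* of the inner kinetochore -0.41, and the checkpoint protein *ZWILCH* -0.39 (adjusted p = 0.0260, 0.0411, 0.0460 and 0.0409, edgeR). With 1 library left out at a time, that of *OIP5* ran from -0.74 to -0.39, the latter without EZH2i replicate 1. The call of *CENPH* was lost with upper-quartile normalization and with a minimum of 10 reads in every library (adjusted p = 0.0537 and 0.0518, edgeR). *FOXM1* and *MYBL2*, transcription factors of G2/M genes, were not called. Their log2 fold changes were -0.38 (95% interval -0.71 to -0.047) and -0.21 (95% interval -0.57 to 0.14), with adjusted p of 0.193 and 0.527 in edgeR's test. That of *FOXM1* was -0.19 without DMSO replicate 2, and that of *MYBL2* 0.025 without EZH2i replicate 1.

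Of 50 S-phase and replication genes, all were tested, 46 were below 0, the median log2 fold change was -0.22, and 4 were called lower, or 8%, and none higher, beside 0.922% and 3.34% of all tested genes. The 4 were *CDC45* of the replicative helicase (-0.53), the ribonucleotide reductase subunit *RRM1* (-0.50), the flap nuclease *FEN1* (-0.49) and the clamp loader subunit *RFC4* (-0.41), with adjusted p from 0.0152 to 0.0411 in edgeR's test. With 1 library left out at a time, *RRM1* ran from -0.63 to -0.33. Median average expression was 6.27 log2 CPM in this list and 5.75 in the other mitosis genes, against 4.62 over all tested genes. Both lists thus had more reads behind each value. The summed level of the 50 was 5481, 5401 and 5171 CPM for DMSO and 4585, 4609 and 4364 CPM for EZH2i. These sums did not overlap between the groups, and neither did those of the 116 other mitosis genes, at 11253, 10589 and 11191 CPM for DMSO and 10112, 10314 and 9856 CPM for EZH2i, whereas those of the 45 members did. For the members and the other mitosis genes, the median over the list per library gave the opposite. In the members DMSO replicate 2, at -0.0186, lay above the highest EZH2i library, replicate 2 at -0.0269. In the other mitosis genes DMSO replicate 2 lay below EZH2i replicate 2, at -0.0208 against -0.0158. The difference between the lists was not tested.

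**Figure D5:**
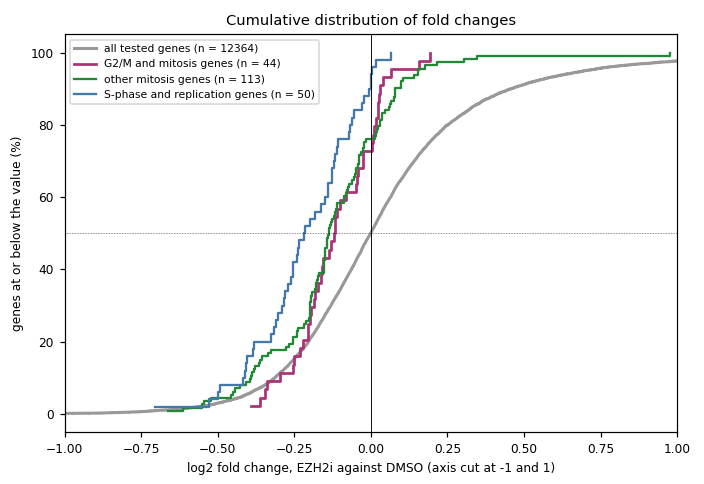
Share of genes (vertical axis, %) at or below each log2 fold change, EZH2i against DMSO (horizontal axis, cut at -1 and 1), for all 12364 tested genes, 44 G2/M and mitosis genes, 113 other mitosis genes and 50 S-phase and replication genes. The mitosis curves have their medians at -0.12 and -0.14, the S-phase curve at -0.22, and the curve of all genes at -0.000215.

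Of the CDK inhibitors and p53 targets, 15 of 17 were tested and 2 were called, both higher, beside 3.34% of all tested genes. *CDKN1A*, which encodes the CDK inhibitor p21, was at 63.5, 68.6 and 74.6 CPM in DMSO and 141, 128 and 130.3 CPM in EZH2i, or 68.9 ± 5.53 and 133 ± 7.03 CPM (SD, n = 3 each). All EZH2i libraries lay above all DMSO libraries, and the log2 fold change was 0.95 (95% interval 0.73 to 1.17, adjusted p = 6.93e-05, edgeR). *BTG2*, an antiproliferative gene, followed at 0.55 on the log2 scale (adjusted p = 0.0361, edgeR). *CDKN2A* and *CDKN2B* had no read in any library and could not be compared. Whether p53 took part in any of these changes was not tested. Exons of other genes overlap *ZWILCH*, *OIP5*, *CDC45*, *RRM1*, *RFC4* and *CDKN1A* on the opposite strand, *RPL4* for *ZWILCH* and *EIF4A2* for *RFC4* among them, and *FADS2* overlaps *FEN1* on its own strand, so the counts of these called genes are uncertain as well. Of the 11 calls in these other lists, that of *CDKN1A* held whichever of the 6 libraries was left out. The other 10 were lost without DMSO replicate 1, with adjusted p from 0.0915 to 0.169 in edgeR's test. For all of them but *CDC45*, the call was also lost without some other library. *ZWILCH*, *CENPH* and *RFC4* were each called in only 1 of the 6 such fits. *FEN1* had an adjusted p of 0.215 in edgeR's test without DMSO replicate 2. Over all tested genes, leaving out 1 library gave 209 to 536 calls, beside 527 with all 6.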

How the data were processed

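RNA was taken from 6 cultures and sequenced with a 3′ mRNA kit. The authors aligned reads to hg38 with STAR 2.6.0c and counted them per Ensembl gene with HTSeq 0.11.2, per the submitters' processing notes, and deposited raw counts for each library. The strand setting is not given in the sources used here. Rows that name no gene were left out, and genes held 63.6% to 67.9% of all counted reads. The authors' own DESeq2 comparison (mean count, log2 fold change, standard error, statistic and p-values) was not used.

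Symbols came from a GENCODE annotation, which matched 60401 of 60671 identifiers. Counts were filtered (filterByExpr, minimum count 10), scaled by TMM and tested in R 4.3.3 with edgeR 4.0.16 (glmQLFit, glmQLFTest, two-sided, threshold 0.05 after Benjamini-Hochberg adjustment). DESeq2 1.42.0 was an alternative. The scripts were tested on simulated data.

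The members and the other lists were chosen with earlier results of these data known. Genes were named by rule: called members, 6 fixed members (*CCNB1*, *CDK1*, *PLK1*, *AURKB*, *TOP2A*, *MKI67*), *FOXM1*, *MYBL2* and *CDKN1A*, the highest, lowest and smallest-p member of each of 7 roles, and up to 5 called genes of each other list. Further members were named after their values were seen. No library was a copy of another: between replicates, chi-square per degree of freedom was 4.56 to 12.7.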

Additional observations from a re-analysis of the deposited data

How the results depend on the processing

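At an adjusted p under 0.01, 148 genes were called (135 higher, 13 lower) and 0 members. Upper-quartile normalization and the replicate block each left 0 members called, and DESeq2 called 2 (*SMC4* and *NCAPG*). Without the filter on low counts, 928 genes were called, 349 of them lower, with 2 members, 8 other mitosis genes and 7 S-phase genes. The same replicate numbers in both groups did not pair the samples (correlations of deviations -0.0511, -0.0175 and -0.0170). With the replicate block, edgeR gave *SMC4* an adjusted p of 0.0725 and *ZWILCH* one of 0.0615, so both calls were lost, and 599 genes were called. It ended none of the other 10 calls named in the report's lists of cell cycle genes.

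Leaving out each replicate in turn gave 209 to 536 called genes (180 to 412 higher, 20 to 124 lower), the fewest in all without DMSO replicate 2. It gave 0 to 2 members, 0 to 6 other mitosis genes, 0 to 5 S-phase genes and 1 to 3 CDK inhibitors and p53 targets. Median log2 fold changes were -0.16 to -0.096 for the members, -0.16 to -0.092 for other mitosis genes, -0.27 to -0.17 for S-phase genes and 0.011 to 0.16 for CDK inhibitors and p53 targets.

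Of the 44 tested members, 19 changed sign when some 1 library was left out. *PLK1* was at -0.00098 with RLE size factors, -0.011 with DESeq2 and -0.017 without the filter, *AURKA* at -0.0075 with DESeq2 and -0.014 without the filter, and *TOP2A* at -0.0057 without the filter. For the genes named by rule whose sign turned, log2 fold changes with replicates left out ran from -0.069 to 0.040 for *CCNB1*, -0.060 to 0.14 for *PLK1*, -0.10 to 0.0073 for *AURKB*, -0.052 to 0.10 for *TOP2A*, -0.37 to 0.025 for *MYBL2*, -0.070 to 0.10 for *AURKA*, -0.16 to 0.29 for *ESPL1*, -0.13 to 0.16 for *INCENP*, -0.25 to 0.022 for *BIRC5*, -0.089 to 0.086 for *KIF4A* and -0.053 to 0.14 for *ECT2*. The causes were not tested. *UBE2C* and *NUSAP1* had few reads.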
